A study of Arabidopsis thaliana with 6 samples.

Results

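The GASA genes of Arabidopsis thaliana encode small secreted peptides of the gibberellin-regulated family, and 10 of them were followed here through the induction of the stomatal regulator MUTE. They are GASA6 (AT1G74670), GASA1 (AT1G75750), GASA2 (AT4G09610), GASA3 (AT4G09600), GASA4 (AT5G15230), GASA5 (AT3G02885), GASA14 (AT5G14920) and the loci AT2G14900 (GASA7), AT1G22690 (GASA9) and AT5G59845 (GASA10). They were picked by name, as 10 of the 33511 rows of the table, and all 10 had a row. The family was taken up because GASA6 was among the largest falls in the only contrast of the series, so the members' values in that contrast are given as a description, without p-values. RNA came from whole seedlings of the Col-0 background carrying a MUTE cDNA in pER8, a vector in which estradiol switches on the inserted gene in cells throughout the plant. At 4 days of age, seedlings received 10 µM estradiol in liquid medium, or DMSO alone (mock), and were taken after 8 h. Each group had 3 libraries, and each library pooled 40 to 50 seedlings. All 6 libraries carried the construct, so effects of MUTE, of estradiol and of the activator cannot be told apart. Nothing states that replicates were grown separately, so p-values measure only the spread between these libraries.

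As background, GASA proteins carry a signal peptide, a variable stretch and a conserved cysteine-rich domain at the C-terminal end, and they are named after GAST1, a gibberellin-stimulated transcript of tomato. Several are raised by gibberellin and others are lowered by it. Single members have been tied to seed germination, flowering, leaf and stem growth and stress tolerance. MUTE, a bHLH transcription factor, acts in the epidermis at the step from meristemoid to guard mother cell.

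The libraries were checked first. MUTE (AT3G06120) stood at 3.31, 1.89 and 1.90 FPKM in mock libraries 1, 2 and 3 and at 2946, 2964 and 3049 FPKM in estradiol libraries 1, 2 and 3. Its fitted change, estradiol minus mock on the log2(FPKM + 1) scale used for every log2 change here, was 9.82 (SE 0.138, limma adjusted p 2.67e-08), and a two-sided exact permutation test gave p = 0.1, the smallest that 3 against 3 allows. The labels state a target of 30 M reads per sample. The FPKM steps of low rows implied 42.2 to 47.8 M fragments in the mock libraries and 19.7, 47.5 and 26.2 M in estradiol 1, 2 and 3. Estradiol 1 and 3 also stood apart in single genes such as the antenna protein gene CAB2 (AT1G29920), at 3399, 215 and 1800 FPKM in estradiol 1, 2 and 3 against 198 to 229 FPKM in mock. Of 19134 genes tested, 36.2% passed the threshold (limma, Benjamini-Hochberg adjusted p under 0.05), 23.3% higher and 12.9% lower with estradiol.

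The family was first laid out by sequence. RefSeq's annotation of TAIR10.1 names 16 loci of the gibberellin-regulated family by product, of which 15 were considered here: the 10 members and AT3G10185, AT2G18420, AT2G39540, AT2G30810 and AT1G10588. Each of the 15 translated coding sequences held exactly 12 cysteines in its last 60 residues. The proteins were 87 to 122 residues long, except that of GASA14, which had 275 residues with 29.5% proline. Over the last 60 residues, identity between pairs ran from 38.3% to 88.3% with a median of 50.8% over 105 pairs. GASA6 was nearest to AT3G10185 at 80.0%, then to GASA4 and, at 73.3%, to GASA5, and it shared 45.0% with GASA1. GASA2 and GASA3, neighbours on chromosome 4, were the closest pair of all at 88.3%, but shared no stretch of 50 bases in their transcripts.

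Proximal promoters are shown for the 3 family genes with the lowest fitted changes (GASA6, GASA5 and AT3G10185) and for GASA1, which had about the mock level of GASA6 and did not pass the threshold. Each is the 250 bases before the annotated gene start in TAIR10.1, read 5′ to 3′ on the gene's strand, and capitals mark E-boxes (CANNTG, searched on both strands), the element that bHLH factors such as MUTE are known to bind.
GASA6, chr1:28052780-28053029, plus strand: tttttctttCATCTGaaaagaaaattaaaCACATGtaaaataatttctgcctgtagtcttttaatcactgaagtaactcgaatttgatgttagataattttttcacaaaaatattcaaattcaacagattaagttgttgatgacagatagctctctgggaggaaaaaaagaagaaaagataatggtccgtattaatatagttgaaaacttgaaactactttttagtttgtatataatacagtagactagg
GASA5, chr3:639243-639492, minus strand: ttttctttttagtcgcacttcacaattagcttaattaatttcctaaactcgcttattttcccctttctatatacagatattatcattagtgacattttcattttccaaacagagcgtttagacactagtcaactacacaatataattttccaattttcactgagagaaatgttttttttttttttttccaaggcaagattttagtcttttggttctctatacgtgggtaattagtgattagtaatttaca
AT3G10185, chr3:3145276-3145525, plus strand: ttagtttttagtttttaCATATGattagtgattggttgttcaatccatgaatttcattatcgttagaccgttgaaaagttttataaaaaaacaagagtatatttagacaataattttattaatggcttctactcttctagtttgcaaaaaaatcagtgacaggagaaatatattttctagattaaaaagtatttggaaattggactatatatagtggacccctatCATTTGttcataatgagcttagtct
GASA1, chr1:28442436-28442685, minus strand: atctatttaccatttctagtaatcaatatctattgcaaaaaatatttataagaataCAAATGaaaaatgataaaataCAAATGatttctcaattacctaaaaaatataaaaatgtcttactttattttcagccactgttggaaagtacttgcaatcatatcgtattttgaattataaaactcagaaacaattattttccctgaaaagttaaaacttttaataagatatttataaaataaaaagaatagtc
GASA6 had 2 E-boxes, starting 241 and 221 bases upstream, AT3G10185 had 2, starting 233 and 25 bases upstream, and GASA5 had 0 in this window. GASA1 also had 2. At least 1 E-box stood in 8 of the 10 member promoters and in 55.3% of 27437 promoters of protein-coding genes. The G-box (CACGTG, a kind of E-box) was in 0 of the 10 and in 6.5% of all promoters. The gibberellin response element TAACAAA, searched on both strands, was in 1 of the 10, that of GASA9, 128 bases upstream, and in 16.1% of all promoters. A match describes the letters in the window and nothing more.

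With MUTE induced, GASA6 fell from 101.8 to 28.98 FPKM while GASA1, at a similar level in mock, stood at 103.6 and 104.9 FPKM. GASA5 fell by a similar factor at a much lower level. GASA4 and GASA9 passed with small falls, a call that GASA4 lost in 6 of 14 alternatives and GASA9 in 3 of 14, and GASA14, GASA7, GASA10 and GASA1 did not pass the threshold. GASA2 and GASA3 were at or near 0 in every library. In all, 8 of the 10 members passed the filter on low values, and 4 of those passed the threshold, all lower. The background was 36.2% in either direction and 12.9% lower, and the contrast was the one in which the family was noticed, so nothing is read from this count. The groups of those 4 did not overlap, which was so for 51.0% of all genes tested.

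GASA6 is known to promote germination and elongation of the embryonic axis, acting between gibberellin, abscisic acid and glucose signals. It stood at 97.06, 107.42 and 100.92 FPKM in mock and at 30.95, 32.25 and 23.75 FPKM in estradiol libraries 1, 2 and 3. The groups did not overlap, and estradiol 3 was the lowest. The group means were 101.8 ± 5.24 FPKM (SD, n = 3) and 28.98 ± 4.58 FPKM (SD, n = 3), a level 3.51 times as high in mock. The fitted log2 change was -1.79 (SE 0.102), the 5th lowest of the 19134 genes tested. The log2(FPKM + 1) scale understates the change of low genes, and AT3G10185, 4.98 times as high in mock, ranked 25th. The rank of GASA6 restates the fall by which the family was noticed. About 4125 to 4270 fragments stood behind each mock value of GASA6 and about 555 to 1394 behind each estradiol value. An annotated gene on the opposite strand, AT1G74675, overlaps GASA6 and shares 18.2% of its 50-base stretches. No row of the table was paired with that gene, so how its reads were counted is unknown.

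GASA5 is known as a brake on flowering and has been tied to the response to heat. It stood at 6.14, 5.28 and 6.90 FPKM in mock and at 2.07, 2.29 and 2.03 FPKM with estradiol. All 3 estradiol libraries were below all mock libraries, and they lay close together. Its means were 6.11 ± 0.811 and 2.13 ± 0.140 FPKM (SD, n = 3 each), a level 2.87 times as high in mock, with a fitted log2 change of -1.18 (SE 0.0845). On this log2(FPKM + 1) scale, 38 genes (0.199% of those tested) had a change as low as that of GASA5 or lower. GASA5 itself, GASA6 and AT3G10185 were among them. This share comes from the contrast in which the family was noticed, so it is a description and nothing is read from it.

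GASA4, a gene of meristematic regions with roles in flowering and seed size, had the smallest change among the members that passed. It stood at 80.76, 83.61 and 77.18 FPKM in mock and at 70.52, 74.33 and 73.99 FPKM with estradiol. The groups did not overlap, and the gap between them was narrower than the range within mock. Its fitted log2 change was -0.14 (SE 0.0398). AT1G22690 (GASA9) stood at 20.09, 19.67 and 18.82 FPKM in mock and at 15.64, 18.03 and 16.27 FPKM with estradiol, again without overlap, with a fitted log2 change of -0.22 (SE 0.0546). On the opposite strand GASA9 overlaps AT1G22700, which stood at 20.2 ± 1.11 FPKM in mock and 19.9 ± 0.947 FPKM with estradiol (SD, n = 3 each). Leaving out estradiol 1 and 3 together leaves 1 estradiol library. The changes were then -0.11 for GASA4, -0.11 for GASA9, -1.63 for GASA6 and -1.10 for GASA5.

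**Figure D1:**
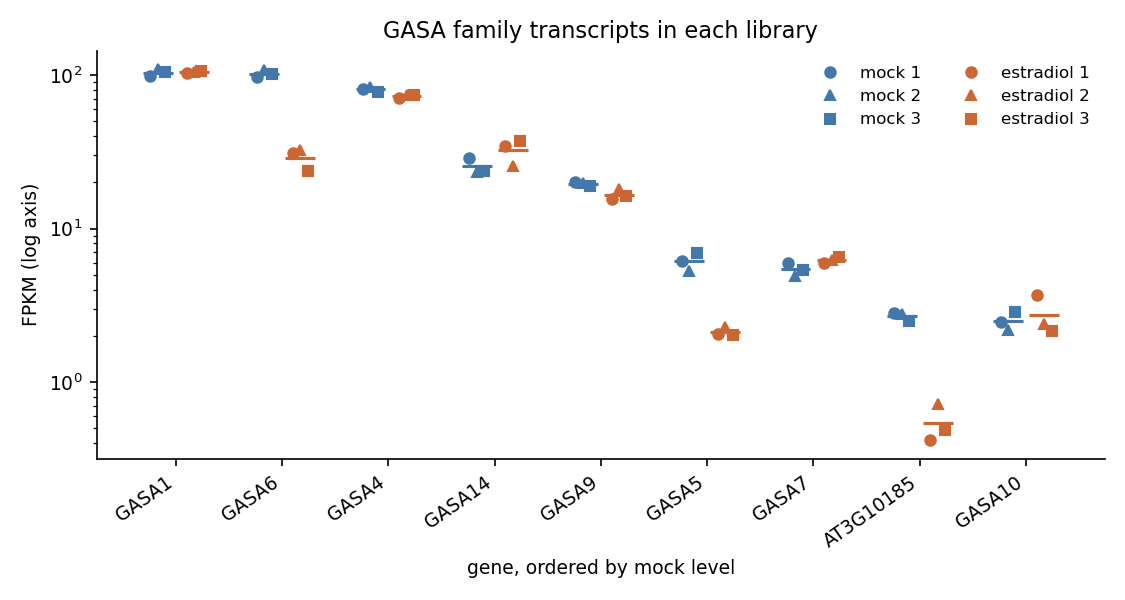
FPKM on a log axis of the 9 GASA family genes that passed the filter, in each of the 3 mock (blue) and 3 estradiol (orange) libraries, with marker shapes for replicates and lines for group means. The mean of GASA6 drops from 101.8 FPKM, near GASA1 in mock (103.6 FPKM), to 28.98 FPKM, near GASA14 with estradiol (32.27 FPKM), and GASA5 and AT3G10185 drop at lower levels.

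GASA1, a gibberellin-raised gene, was the most abundant member in both groups. It stood at 98.10, 108.90 and 103.81 FPKM in mock and at 103.42, 104.43 and 106.84 FPKM with estradiol. The estradiol values lay inside the mock range, and the fitted log2 change was 0.02 (SE 0.0421), turning to -0.04 with median-of-ratios size factors.

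GASA14, the long proline-rich member with a known part in leaf growth and stress tolerance, had the highest fitted change, 0.33 (SE 0.135). It stood at 28.98, 23.45 and 23.64 FPKM in mock and at 34.34, 25.40 and 37.08 FPKM with estradiol. The groups overlapped, because estradiol 2 lay below mock 1 while estradiol 1 and 3, the libraries of lower implied depth, lay above all mock values. GASA14 passed the threshold only when estradiol 2 was left out (0.48), and without estradiol 1 and 3 its change was 0.01. What depth contributed to this was not tested.

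The 2 members left above the filter, GASA7 and GASA10, did not pass. AT2G14900 (GASA7) stood at 6.01, 4.93 and 5.38 FPKM in mock and at 5.93, 6.25 and 6.56 FPKM with estradiol, with overlapping groups and a fitted log2 change of 0.17 (SE 0.0680), and it passed only without mock 1 (0.24). AT5G59845 (GASA10) ranged from 2.15 to 3.67 FPKM over all 6 libraries, with overlapping groups, estradiol 1 the highest and a change of 0.07 (SE 0.143, the largest among the 8 kept members) that turned to -0.10 without estradiol 1. GASA2 was listed at 0 in every library. GASA3 was listed at 0.03 FPKM in mock 1 and 0.11 FPKM in estradiol 3, about 1 and 2 fragments, and at 0 in the other libraries. GASA2 and GASA3 are best known from siliques and seeds.

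**Figure D2:**
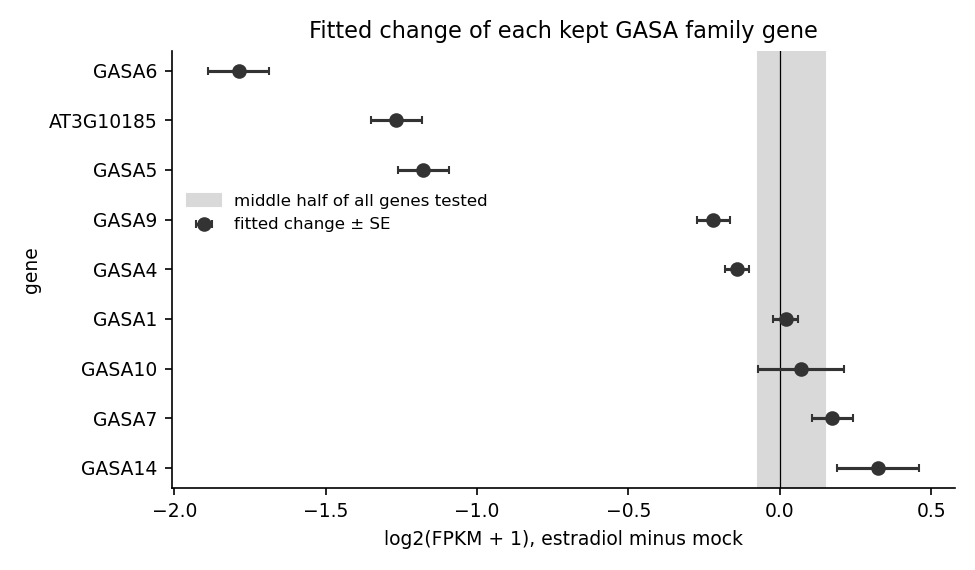
Fitted change on the log2(FPKM + 1) scale, estradiol minus mock, with its SE from the limma fit for the 9 GASA family genes that passed the filter, and in grey the interquartile range of all genes tested (-0.07 to 0.15). GASA6 (-1.79), AT3G10185 (-1.27) and GASA5 (-1.18) lie far to the left, and the other 6 lie between -0.22 and 0.33.

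Of the 5 loci of the family outside the members, only AT3G10185 passed the filter. It stood at 2.80, 2.79 and 2.52 FPKM in mock and at 0.42, 0.72 and 0.49 FPKM with estradiol, with no overlap. Its means of 2.70 ± 0.159 and 0.543 ± 0.157 FPKM (SD, n = 3 each) gave a level 4.98 times as high in mock and a fitted log2 change of -1.27 (SE 0.0839). It passed the filter through the mock libraries alone, so a gene kept in this way had to be lower with estradiol, and its values are given as a description with no test. For this gene, about 4 to 17 fragments stood behind each estradiol value. AT3G10180, on the opposite strand, overlaps it and shares 23.2% of its stretches, and rose from 1.42 ± 0.0208 to 2.12 ± 0.0115 FPKM (SD, n = 3 each; log2 change 0.37, limma adjusted p 0.00135). AT2G39540 and AT2G30810 were listed at 0 in all libraries, AT2G18420 at no more than 0.06 FPKM and AT1G10588 at no more than 0.01 FPKM.

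The order of levels within the family changed with induction. FPKM is scaled for length, so levels can be set beside each other. In mock the order was GASA1, GASA6, GASA4, GASA14, GASA9, GASA5, GASA7, AT3G10185 and GASA10. The ranges of GASA1 and GASA6 overlapped, as did those of GASA5 and GASA7 and those of AT3G10185 and GASA10. With estradiol the order was GASA1, GASA4, GASA14, GASA6, GASA9, GASA7, GASA10, GASA5 and AT3G10185, and the ranges of GASA14 and GASA6 overlapped, as did those of GASA10 and GASA5. Among all rows GASA6 ranked 654th to 743rd by FPKM in the mock libraries and 2598th to 3606th in the estradiol libraries.

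The ratio of 2 genes within a library does not change when the library is scaled by a single factor, although quantile normalization can change it. The FPKM of GASA6 divided by that of GASA1 was 0.989, 0.986 and 0.972 in mock 1, 2 and 3, and 0.299, 0.309 and 0.222 in estradiol 1, 2 and 3. GASA5 over GASA1 was 0.0485 to 0.0665 in mock and 0.0190 to 0.0219 with estradiol. In both ratios the groups stayed apart. GASA1 was taken as the reference with the values of all 3 genes known, so the ratios are a description. The summed FPKM of the 10 members went from 344.9 ± 9.18 to 266.9 ± 1.73 (SD, n = 3 each), whereas without GASA6 the sum was 243.1 ± 4.72 in mock and 237.9 ± 6.27 with estradiol, ranges that overlapped. GASA6 made up 29.5% ± 0.819 of the family's sum in mock and 10.9% ± 1.79 with estradiol (SD, n = 3 each).

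**Figure D3:**
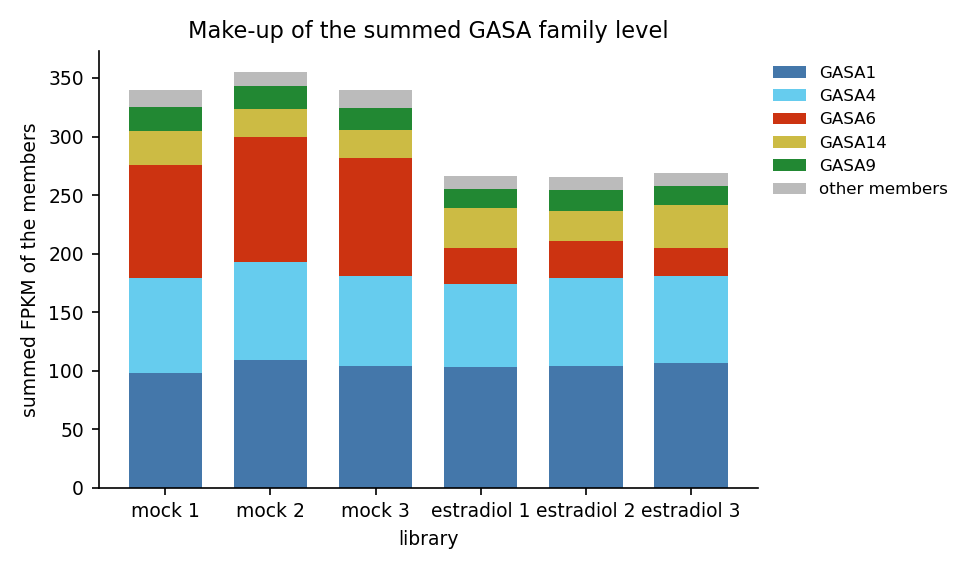
Stacked bars of the summed FPKM of the 10 GASA members in each library, by member. The sum falls from 339.5 to 355.5 FPKM in mock to 265.4 to 268.8 FPKM with estradiol, and the GASA6 segment (red) is the one that shrinks most.

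Genes that make, inactivate and relay gibberellin were examined around the family. These lists and those that follow were chosen with earlier results of these data known, so their p-values are no independent support. Of 14 synthesis genes, 7 passed the filter and 1 of these fell, beside 12.9% of all genes. It was GA3ox1, listed as ATGA3OX1 (AT1G15550), which makes bioactive gibberellin in the last step, went from 8.91 ± 0.637 to 5.41 ± 0.204 FPKM (SD, n = 3 each; log2 change -0.63, SE 0.0568, limma adjusted p 0.000160). KO, listed as ATKO1 (AT5G25900), an early enzyme of the pathway, stood at 14.5 ± 0.716 and 15.9 ± 0.901 FPKM and did not pass (0.12, limma adjusted p 0.105). The median change of the 7 was -0.01, beside 0.05 for all genes. Of 7 gibberellin 2-oxidases, which inactivate the hormone, 5 were paired with a row. GA2ox4 and GA2ox6 were not, so their levels are unknown. Of the 5, 1 passed the filter and 0 passed the limma threshold. The gene past the filter, GA2ox2 (AT1G30040, -0.23, limma adjusted p 0.0610), had an unadjusted limma p under 0.05.

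Among 15 signalling genes, 14 passed the filter, 2 rose and 4 fell, against 23.3% and 12.9% of all genes, with a median change of 0.01. Among the DELLA repressors, which hold growth back until gibberellin removes them, 2 rose, 1 fell and RGL3 (AT5G17490) did not pass (-0.01, limma adjusted p 0.936). RGA was not analysed here, because no row was paired with it. RGL1 (AT1G66350) rose from 4.59 ± 0.433 to 6.27 ± 0.136 FPKM (SD, n = 3 each; 0.38, SE 0.0623, limma adjusted p 0.00257) and RGL2 (AT3G03450) by 0.18 (limma adjusted p 0.0291), whereas GAI (AT1G14920) fell from 16.4 ± 0.271 to 13.8 ± 0.992 FPKM (-0.23, SE 0.0519, limma adjusted p 0.0101). The receptor gene GID1A (AT3G05120) fell by 0.19 on the log2 scale, SCL3 (AT1G50420), a partner of the DELLAs, by 0.20 and GAF1, listed as AtIDD2 (AT3G50700), a DNA-binding partner, by 0.19, with limma adjusted p of 0.00854, 0.0136 and 0.00964. SEC (AT3G04240), an enzyme that modifies DELLA proteins, did not pass (0.02, limma adjusted p 0.773, and -0.03 with either other scaling). RGL2 lost the threshold in 7 of 13 alternatives. Without estradiol 1 and 3 together, 1 of the 14 passed, GAI.

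Of 3 genes tied to single GASA genes, 2 passed the filter and 1 of these fell, beside 12.9% of all genes. EXPA1, listed as ATEXPA1 (AT1G69530), encodes a cell wall-loosening expansin known to act downstream of GASA6 in germination, and RGL2 and ABI5 are known there as repressors of GASA6. EXPA1 stood at 39.22, 39.30 and 38.86 FPKM in mock and at 17.14, 17.10 and 16.26 FPKM with estradiol. The groups were far apart and each was tight, with a log2 change of -1.17 (SE 0.0342, limma adjusted p 9.75e-07). ABI5 (AT2G36270) stood at 1.21 ± 0.128 and 1.14 ± 0.150 FPKM (SD, n = 3 each) and did not pass (-0.05, limma adjusted p 0.686). FLC, listed as AGL25 (AT5G10140), tied to GASA5 in flowering, was below the filter at 0.29 to 0.38 FPKM in all libraries. Whether any of these links acts in these seedlings was not tested.

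Of 12 growth regulators that act with gibberellin and brassinosteroid, 7 passed the filter, 2 rose and 2 fell, beside 23.3% and 12.9% of all genes, with a median change of 0.06. PIF3, 1 of the 12, was paired with no row, so its level is unknown. The growth-promoting HLH genes PRE6, listed as KDR (AT1G26945), and HBI1 (AT2G18300) fell, from 6.66 ± 0.651 to 3.31 ± 0.955 FPKM (SD, n = 3 each; -0.85, SE 0.145, limma adjusted p 0.00313) and from 10.9 ± 0.0819 to 7.21 ± 0.615 FPKM (-0.54, SE 0.0576, limma adjusted p 0.000350). The brassinosteroid transcription factor genes BZR1 (AT1G75080) and BES1 (AT1G19350) rose by 0.65 (SE 0.0431, limma adjusted p 3.76e-05) and 0.29 (SE 0.0498, limma adjusted p 0.00321), and BES1 did not pass without estradiol 1 and 3 (0.20, limma adjusted p 0.0596). PRE3, listed as ATBS1 (AT1G74500), did not pass (0.06, limma adjusted p 0.451).

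**Figure D4:**
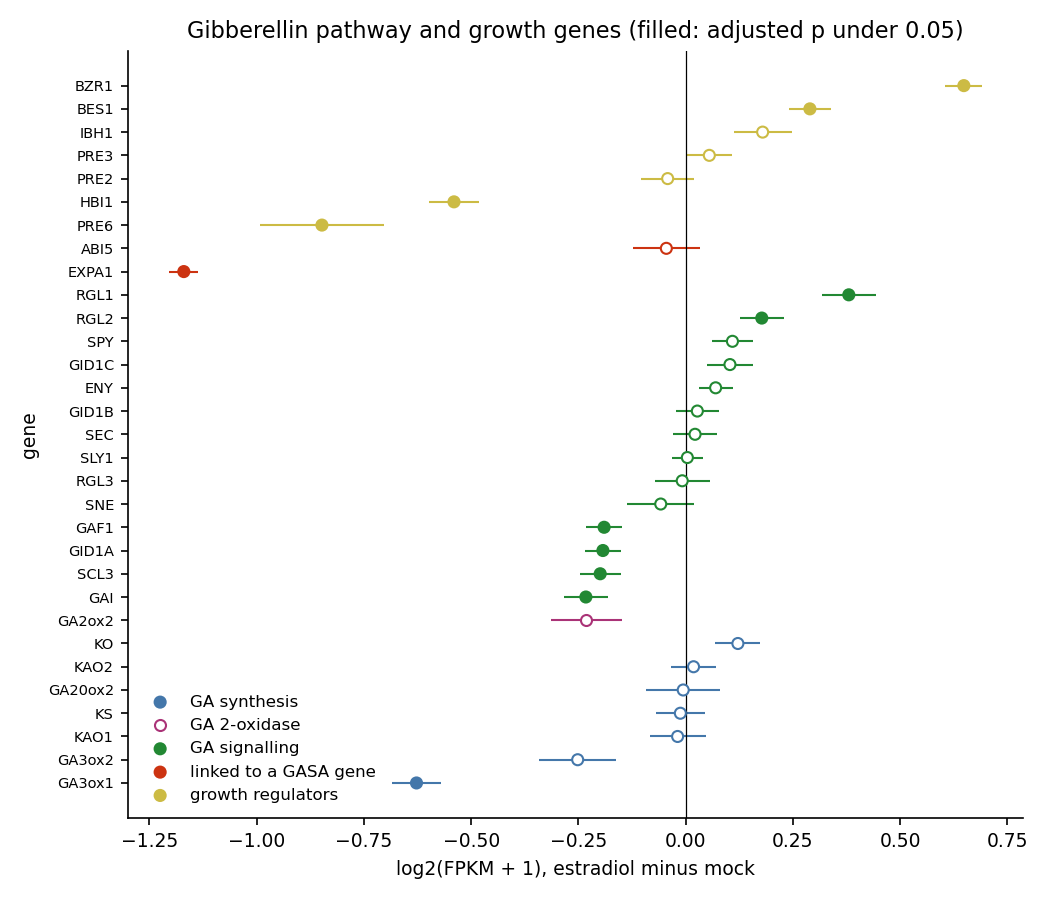
Fitted change on the log2(FPKM + 1) scale, estradiol minus mock, with SE, of the kept genes of the gibberellin, GASA-linked and growth lists; filled points passed an adjusted p of 0.05. EXPA1 (-1.17) and PRE6 (-0.85) lie lowest and BZR1 (0.65) highest, while most synthesis and signalling genes lie between -0.25 and 0.25.

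The genes most like GASA6 over the 6 libraries were sought by the Euclidean distance of log2(FPKM + 1) after each gene's mean was removed. The nearest were AT3G28270 (distance 0.146), ATMSRB6 (AT4G04840, 0.250), whose name is that of a methionine sulfoxide reductase, AT1G60590 (0.283), AT1G23205 (0.322) and AT1G78230 (0.345). AT3G28270 stood at 10.33, 11.62 and 10.76 FPKM in mock and at 2.61, 2.91 and 2.18 FPKM with estradiol, so that estradiol 3 was lowest and mock 2 highest in both genes. For GASA14 the nearest were AT5G40130 (0.161), EARLI1 (AT4G12480, 0.168), DJC24 (AT2G17880, 0.173), AAP3 (AT1G77380, 0.211) and SADHU5-1 (AT4G01525, 0.237). EARLI1, a gene for a lipid transfer-like protein, stood at 187.16, 128.08 and 189.92 FPKM in estradiol 1, 2 and 3, high in the same libraries as GASA14. Such likeness follows from the way the genes were picked, over these same 6 libraries, and is no separate support.

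**Figure D5:**
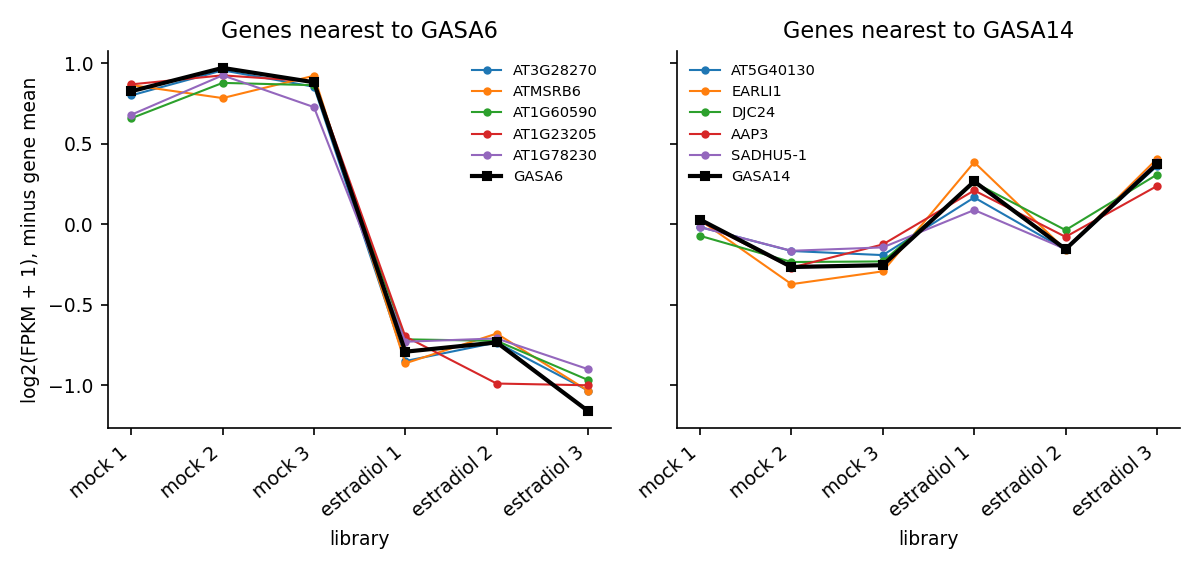
Values of log2(FPKM + 1) minus each gene's mean over the 6 libraries, for GASA6 and GASA14 (black) and the 5 genes nearest to each. The GASA6 set steps down between mock 3 and estradiol 1, and the GASA14 set is highest in estradiol 1 and 3, with estradiol 2 near the mock libraries.

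Markers of cell types in the seedling moved with the groups in part. In bulk tissue, fewer cells of a type and less RNA per cell cannot be told apart. The shares of all genes to set beside the marker counts are 23.3% higher and 12.9% lower. All 9 root hair markers passed, 7 lower and 2 higher, and their summed FPKM was 145.4 to 160.5 in mock and 86.2 to 99.8 with estradiol. Much of that sum was PRP3, with means of 80.65 FPKM in mock and 42.4 FPKM with estradiol. The 2 that rose were RHD6, from 2.42 to 3.29 FPKM, and RSL2, from 1.14 to 1.84 FPKM, so the sum does not speak for every marker. Of 8 endodermis markers 4 rose and 0 fell, with sums of 60.6 to 64.0 and 72.4 to 73.8 FPKM. Of the kept phloem, xylem and guard cell markers 0 of 3, 0 of 3 and 0 of 5 passed in limma, with 0, 0 and 1 at an unadjusted p under 0.05. Of 3 trichome markers 1 rose, with sums of 3.35 to 3.79 and 3.91 to 4.23 FPKM. Of 3 mesophyll markers 1 fell, with sums of 6463 to 6897 FPKM in mock and 6778 to 9887 FPKM with estradiol that include CAB2. None of the markers with a row was at 0 in any library. The part of these cell types in the levels of GASA6, GASA5 and AT3G10185 was not tested.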

How the data were processed

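The members and gene lists were chosen with earlier results of these data known. Expression was deposited by the authors as FPKM (fragments scaled for transcript length and library size), in a table with a row for each gene name. Per the submitters' processing notes, TopHat2 2.0.13, DESeq2 and build TAIR10 were used, with no role given for each. The tool that made the FPKM values, the annotation, any scaling between libraries and whether counting used strand are not given in the sources used here. Of the numeric columns, 1 whose heading named no sample or measure was not used. Row names were paired with locus tags through RefSeq's annotation of TAIR10.1, which matched 96.3% of the 33511 rows.

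A gene entered the tests if 3 or more of the 6 libraries reached 1 FPKM. The model, on log2(FPKM + 1), had the treatment group alone and was fitted in limma 3.58.1 under R 4.3.3, using lmFit and eBayes (trend on). Its two-sided p-values were adjusted by Benjamini-Hochberg across all 19134 tested genes, and 0.05 was the threshold. Fold changes on this scale understate the change of low genes. Named genes were the 15 GASA family loci, MUTE, up to 6 list members past the threshold with the most abundant one that did not pass, and the 5 genes nearest in pattern to GASA6 and to the member with the highest change. Alternatives changed the pseudocount, filter or scaling, dropped the trend or single libraries, or added a replicate block. The fit was tested on simulated data. Promoters and translated coding sequences were read from TAIR10.1 in Python 3.11.15 with biopython 1.88.

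The file gives no counts. Relative depth came from low values, where FPKM multiplied by transcript length falls on multiples of what 1 fragment is worth. The step was found for each library from 1398 to 1527 rows with transcripts of RefSeq's longest length, and the method was tested on simulated data. The values fitted the steps loosely, with scores of 0.194 to 0.324 where 1 would be a perfect fit, so the implied depths are approximate. Fragment numbers derived from it are approximate, and no counting intervals are given.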

Additional observations from a re-analysis of the deposited data

How the results depend on the processing

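Over the alternatives, fitted log2 changes ran from -1.87 to -1.63 for GASA6, -1.47 to -1.10 for GASA5 and -2.15 to -1.11 for AT3G10185. These refit the values that were known when the family was taken up and by which AT3G10185 was kept, so they are no independent support. The count of members past the threshold was 4, but 2 with no filter and 2 without estradiol replicates 1 and 3, a fit chosen after seeing the data that assumes the lone estradiol library to vary like the mock libraries. That fit gave 3230 genes in all and 1 signalling gene; it rests on fewer libraries. Leaving out single libraries gave 5337 to 5794 genes and 3 to 5 members, 1 to 2 synthesis genes, and 0 to 1 gibberellin 2-oxidases. The synthesis genes past the threshold were 2 with no filter, under median-of-ratios size factors and after quantile normalization. The 2-oxidases were 1 with median-of-ratios size factors and 1 without a trend. With the filter at 5 FPKM, 0 of the other family loci were left to test. Signs turned for GASA1 with median-of-ratios size factors (-0.037), GASA10 without estradiol 1 and 3 (-0.046), SEC under those size factors (-0.032) and after quantile normalization (-0.029), and AT1G22700 without estradiol 1 and 3 (0.018). Over the fits that leave out single libraries, changes ran from -0.019 to 0.055 for GASA1, -0.101 to 0.183 for GASA10, -0.035 to 0.056 for SEC, -0.091 to 0.015 for ABI5 and -0.055 to 0.020 for AT1G22700. The cause was not tested. MUTE stayed between 9.53 and 10.29.

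Same-numbered libraries did not deviate together (correlations -0.006, 0.047 and -0.002). A fit with a replicate block called 6038 genes and 4 members, and the change of GASA6 was -1.79. Lower depth in estradiol 1 and 3 limits the low genes of the family, since AT3G10185 rests on about 4 and 6 fragments there.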
